A study of Mus musculus with 8 samples.

Results

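The aminoacyl-tRNA synthetases, the enzymes that load each tRNA with its amino acid, were chosen by gene symbol alone, and all 38 genes that the symbols name were found among the 24728 genes of the table. Cytosolic enzymes were coded by 21 of these genes and mitochondrial enzymes by 17. The cytosolic count includes Gars and Kars, whose single genes supply the glycine and lysine enzymes of both compartments. Transcripts were measured in 8 Smart-seq libraries, an amplified full-length cDNA method, from C57BL/6 mouse embryos. The libraries fell into 4 groups of 2, labelled 2C, 8C, CX22 and CX45. The labels 2C and 8C were read as embryos at the 2-cell and 8-cell stage. The labels do not spell out CX22 and CX45, name no control, and give no genotype, agent, dose or age for any group, so the 4 groups were compared in all 6 pairs. The number of embryos in a library is not given in the sources used here. Nothing says that the libraries of a group came from separate pools of embryos, so p-values measure the spread between these libraries only, which may be technical. In such bulk libraries, fewer cells of a type and less RNA per cell cannot be told apart.

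Translation needs a charged tRNA for every amino acid, and each synthetase joins 1 amino acid to its own tRNAs in a reaction that uses ATP. The enzymes belong to class I or class II, which have unrelated catalytic folds, and several cytosolic ones are held with scaffold proteins in a multisynthetase complex. Mitochondria make their own tRNAs but import their synthetases, which nuclear genes encode. In the mouse, the embryo's genome becomes active mainly at the 2-cell stage, while transcripts stored by the oocyte are degraded. Amino acid shortage is sensed through uncharged tRNA, and the transcription factor Atf4 then acts on amino acid response elements in promoters, those of some synthetases among them.

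The promoters, 250 bases before to 50 bases after a RefSeq start on the GRCm38.p6 build, are shown because some searched motifs lay in promoters of one compartment only, and sequence played no part in the choice of members. A promoter was listed for 28 members, 14 cytosolic and 14 mitochondrial. The amino acid response element, searched as TGATGNAA on both strands, lay in 5 cytosolic promoters and in 0 mitochondrial ones, against 3.97% of all 32851 promoters of the same length. Each stretch below runs 5′ to 3′ on the gene's own strand, and the capitals mark the element, or its reverse complement. The Aars stretch is at chr8:111033712-111033751 on the plus strand, Gars at chr6:55037951-55037990 on the plus strand, Tars at chr15:11399659-11399698 on the minus strand, Iars at chr13:49682125-49682153 on the plus strand and Yars at chr4:129189893-129189922 on the plus strand.
Aars: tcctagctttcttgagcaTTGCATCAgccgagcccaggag
Gars: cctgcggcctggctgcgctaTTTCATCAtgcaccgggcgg
Tars: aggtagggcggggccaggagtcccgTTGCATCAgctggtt
Iars: gcactgtcagtaTTGCATCAcctccagac
Yars: cgacgagctcagcTGATGCAAcccgacggg
In Aars, Gars and Tars the element shown lay upstream of the start, and in Iars and Yars it lay within the first bases of the transcript. Aars held another copy just after its start.

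Another motif, the core GCATGCGC bound by the nuclear respiratory factor NRF1, a regulator of nuclear genes for mitochondrial proteins, lay in 3 mitochondrial promoters and in 0 cytosolic ones, against 2.71% of all promoters. It is in capitals in the stretches of Rars2 (chr4:34614890-34614929, plus strand), Vars2 (chr17:35667603-35667642, minus strand) and Wars2 (chr3:99141010-99141049, plus strand). The Vars2 stretch carried it at 2 places.
Rars2: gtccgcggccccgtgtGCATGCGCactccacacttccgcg
Vars2: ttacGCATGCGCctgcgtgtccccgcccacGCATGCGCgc
Wars2: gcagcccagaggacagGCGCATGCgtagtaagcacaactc
The 120 bases before the Fars2 start (chr13:36117523-36117642, plus strand) are given because the levels of Fars2 set it apart from the other mitochondrial genes below. The capitals mark a GGGCGG box, which binds SP1, on the opposite strand. That box was common, in 20 of the 28 members and 35.66% of all promoters.
Fars2: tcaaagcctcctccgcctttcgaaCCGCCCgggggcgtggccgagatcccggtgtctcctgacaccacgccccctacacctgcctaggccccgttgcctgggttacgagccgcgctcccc
The E-box CACGTG, which reads the same on both strands, was found in 4 cytosolic promoters (Aars, Farsb, Iars and Tars) and in the mitochondrial Ears2, against 7.15% of all. The GABPA core ACTTCCGG was found in Farsa, Mars1 and Rars2, against 3.89% of all. No match of 1 motif overlapped a match of another in these promoters. A match describes letters in a window only, and no factor binding was measured.

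Values were deposited as FPKM, fragments per kilobase of transcript per 1000000 mapped, which can be compared between genes. The steps between low FPKM values implied depths of 9.74 to 20.2 M fragments (M is 1000000), the most in 8C. For a 2 kb transcript, 3 fragments correspond to 0.0744 to 0.154 FPKM, counting error only, so a value of 0 sets no lower level than that. The 2C libraries were nearly copies of each other: their counts differed by 1.42 times the chance median of a chi-square, against 49, 220 and 76.6 times in 8C, CX22 and CX45. They were therefore averaged and counted as 1 sample. The CX22 libraries stood farthest apart, with 331 genes above 10 FPKM in one and listed at 0 in the other. Among the synthetases at 1 FPKM or more in either CX22 library, 9 of 22 differed by more than 4-fold between them, against 35.1% of all such genes. Farsa and Lars, whose enzymes every cell needs, were listed at 0 in both CX22 libraries, so a synthetase at 0 is given here as listed at 0 and not as silent. Oocyte and early embryo markers summed to 2767 to 2789 FPKM in 2C, 39.4 to 41.8 in 8C, 2137 to 2761 in CX22 and 170 to 367 in CX45. Oosp1 and Bmp15 made up most of that sum in 2C. From 2C to 8C 6 of the 9 markers fell, and Zp3, Padi6 and Zar1 were not called. Markers of cumulus cells summed to 8.82 to 25.1 FPKM in all libraries. Those of sperm summed to 19.6 and 18.7 FPKM in 2C, 0 and 0 in 8C, 42.9 and 33.15 in CX22, with 0 and 4.91 in CX45. Prm2 led that sum in 2C (17.1 and 16.7 FPKM) and in the second CX22 library (28.7), and Tnp1 in the first CX22 library (42.2). Tnp2 was listed at 0 in all. Amhr2 made up most of the cumulus sum in 8C (10.4 and 19.3 FPKM) and CX45 (25.1 and 9.83). Star, at 3.39 and 3.46 FPKM in 2C, and Adamts1, at 1.86 and 2.38, fell from 2C to 8C (limma, adjusted p = 0.0103 and 0.0133). Amhr2, Foxl2 and Ptgs2 were not called there. Only genes at 1 FPKM or more in 2 libraries were tested, and Star and Adamts1 reached that level in 2C alone. That favours a fall, so their signs are not evidence of one. Blood markers summed to 21.1 to 375 FPKM, highest in CX45. They were led by Hba-a1 in all libraries but the first of 8C, with Hbb-b1 at 0.786 FPKM or less. Of the leukocyte genes, Ptprc was at 0.0701 FPKM or less, Cd52 reached 18.8 and 19.6 in CX45 and 10.8 and 2.45 in 8C, and Lyz2 reached 10.2 and 11.8 in CX22 and 9.61 and 7.45 in CX45. From 2C to CX45 Cd52 and Lyz2 rose (limma, adjusted p = 0.0262 and 0.0254). Cd52 reached 1 FPKM in 8C and CX45 alone, so its sign is not evidence of a rise. The part of these marker genes in the results was not tested.

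The cytosolic synthetases were more abundant as a group in 8C and CX45 than in 2C and CX22. Their 21 genes summed to 193 and 195 FPKM in 2C, 557 and 621 in 8C, 185 and 242 in CX22, with 614 and 606 in CX45. The mitochondrial genes other than Fars2 summed to 9.02 and 9.14 FPKM in 2C, 78.9 and 78.0 in 8C, 6.65 and 23.5 in CX22, with 75.2 and 70.6 in CX45. On both sums, every 8C and CX45 library lay above every 2C and CX22 library. Fars2, the mitochondrial phenylalanine enzyme, ran the other way and alone made up 94.8% and 94.7% of the mitochondrial sum in 2C, 85.0% and 74.8% in CX22, 3.73% and 5.0% in 8C, and 3.32% and 1.14% in CX45. With Fars2 in it, the cytosolic sum was 1.12 and 1.14 times the mitochondrial sum in 2C and 6.79 and 7.56 times in 8C. Without Fars2 that order turned over, with 21.4 and 21.3 times in 2C and 7.06 and 7.96 times in 8C. The ratio without Fars2 was 27.9 and 10.3 in CX22, with 8.16 and 8.58 in CX45. No test was made of these sums. The Fars2 share rests on the shorter of its entries, given below, in all libraries but the second of 8C.

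**Figure D1:**
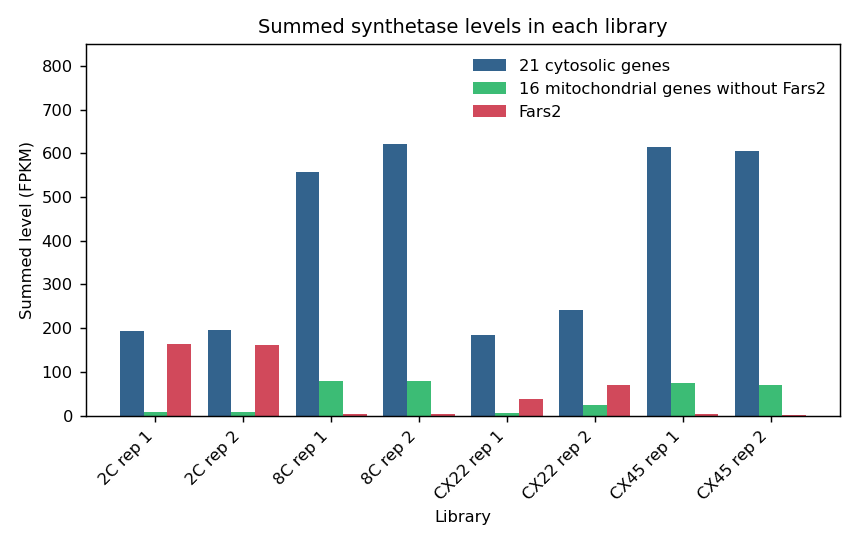
Summed FPKM of the 21 cytosolic synthetase genes, the mitochondrial genes without Fars2, and Fars2 alone, with 1 group of bars per library and no error bars since each bar is 1 library. Cytosolic bars reach 557 FPKM or more in 8C and CX45 and 242 or less in 2C and CX22, and the Fars2 bar is tall only in 2C and CX22.

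The median level also differed between compartments. In 2C the median cytosolic gene stood at 2.91 and 3.18 FPKM and the median mitochondrial gene at 0.0288 and 0.0502. In 8C these medians were 17.8 and 20.8 against 3.06 and 3.63 FPKM, and in CX45 11.1 and 14.9 against 2.14 and 2.59. In CX22 the cytosolic median was 1.72 and 5.29 FPKM, while the mitochondrial median was listed at 0 in the first library and was 0.111 in the second. The gene with the highest level was Fars2 in both 2C libraries and in the second CX22 library, Nars in the first CX22 library (51.8 FPKM), and Rars in all 8C and CX45 libraries. A total of 7 members never reached 1 FPKM in 2 libraries and were not tested: cytosolic Tarsl2 and Vars, and mitochondrial Aars2, Iars2, Nars2, Pars2 and Vars2. The highest value among those 7 was 2.76 FPKM, for Tarsl2 in the first CX45 library. The Iars2 locus overlaps Rab3gap2 and the Mars1 locus overlaps Ddit3 in the table, and whether reads were counted by strand is not given in the sources used here.

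**Figure D2:**
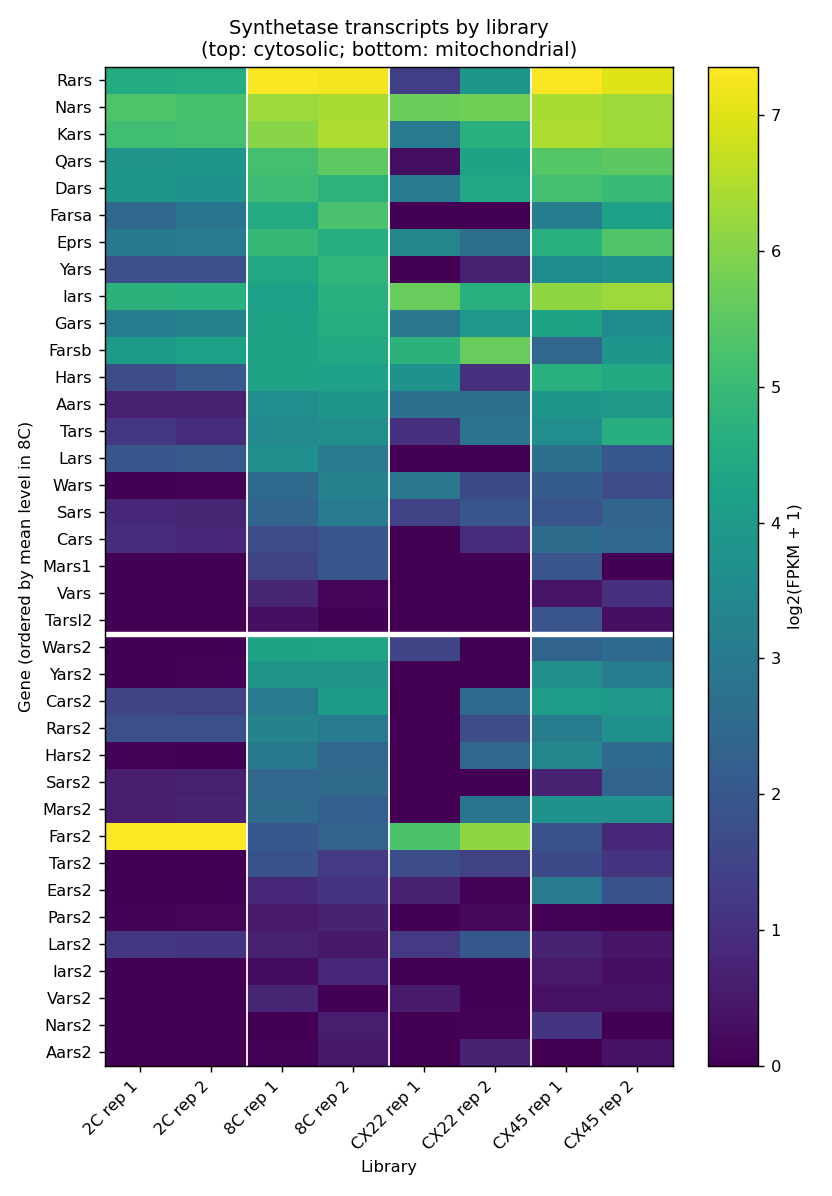
Level of 37 synthetase genes (rows, cytosolic above and mitochondrial below, ordered by mean level in 8C) in each of the 8 libraries (columns), coloured by log2(FPKM + 1). Fars2 is the single mitochondrial gene with its highest values in 2C, at 163 and 162 FPKM, and the largest cytosolic values are those of Rars in 8C and CX45.

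From 2C to 8C, 7 of the 31 tested synthetases rose and 1 fell, by limma on log2(FPKM + 1) with Benjamini-Hochberg adjustment over 11829 genes and a minimum log2 change of 1. Those that rose were the cytosolic Aars, Eprs, Nars, Wars and Yars and the mitochondrial Wars2 and Yars2, and the one that fell was Fars2. The 8 called members are 25.8% of those tested, against 37% of all genes (16.4% rose and 20.7% fell). Of the 31 fitted changes 28 were positive, with a median of 1.73 for the cytosolic and 1.63 for the mitochondrial genes on the log2 scale, against -0.03 and 48.3% positive over all genes tested. Cars, Ears2, Mars1, Sars2 and Yars2 lay under 1 FPKM in 2C and CX22 and passed the filter of 1 FPKM in 2 libraries through 8C and CX45 alone. Hars2, Mars2 and Wars2 reached 1 FPKM in 1 CX22 library and in neither 2C library, so they too passed only with 8C or CX45. That filter favours higher fitted levels of these genes in 8C and CX45 than in 2C and CX22, so their signs are not evidence of a rise. Lars2 passed that filter through 2C and CX22 alone, so its sign is likewise not evidence of a fall. The other 23 tested members were not called from 2C to 8C. The calls rest on both 8C libraries: without the first, 2 members passed (Aars and Fars2), and without the second only Fars2 did. Leaving out either CX22 library raised the count to 17, with 16 rising, and leaving out both gave 16.

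Among cytosolic enzymes, Aars, which charges alanine tRNA (mm9 chr8:113557742-113579469), had the smallest adjusted p. It stood at 0.605 and 0.608 FPKM in 2C, 11.2 and 13.6 in 8C, 5.42 and 5.56 in CX22, with 13.6 and 14.9 in CX45. Every 2C value lay below every other, with CX22 between 2C and the rest. The 8C mean was 12.4 ± 1.70 FPKM (SD, n = 2). The change from 2C to 8C was 3.05 (SE 0.39) on the log2(FPKM + 1) scale (limma, adjusted p = 0.00666), and without the second 8C library its adjusted p was 0.0582. Yars, which charges tyrosine tRNA (mm9 chr4:128867039-128896851), was at 2.46 and 2.46 FPKM in 2C, 19.8 and 27.1 in 8C, listed at 0 and at 0.575 in CX22, and at 10.9 and 12.3 in CX45. Here CX22 lay below 2C and both lay below 8C and CX45, without overlap. The log2 change from 2C to 8C was 2.80 (SE 0.51, limma adjusted p = 0.0162), lost at 0.0774 and 0.1 without the first or second 8C library and at 0.118 with a pseudocount of 0.1.

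Eprs makes a fused enzyme for glutamate and proline and is part of the multisynthetase complex (mm9 chr1:187186923-187252239). Its levels were 6.80 and 6.95 FPKM in 2C, 29.4 and 23.8 in 8C, 9.19 and 5.29 in CX22, with 24.5 and 39.9 in CX45. The 2C and CX22 values overlapped, as did 8C and CX45, and the first pair lay below the second. Its log2 change from 2C to 8C of 1.80 (SE 0.50) was just past the threshold (limma, adjusted p = 0.0469) and was lost in 8 of 19 alternatives, at 0.179 and 0.143 without the first or second 8C library and at 0.0649 and 0.0655 without the first or second CX45 library. Nars, the asparagine enzyme, was abundant in every library. It stood at 39.0 and 36.5 FPKM in 2C, 76.8 and 84.8 in 8C, 51.8 and 53.7 in CX22, with 84.4 and 77.3 in CX45. The log2 change of 1.08 (SE 0.23, limma adjusted p = 0.0251) was lost in 5 of 19 alternatives: without the first or second 8C library (0.0904 and 0.113), with quantile normalization (0.0826), with the replicate block (0.0509) and with the entry of the highest mean (0.108). Wars, the tryptophan enzyme (mm9 chr12:110098240-110132384), was listed at 0 and at 0.0423 FPKM in 2C and stood at 4.70 and 8.37 in 8C, 6.49 and 2.15 in CX22, with 3.42 and 2.25 in CX45. CX22 overlapped both 8C and CX45, 8C lay above CX45, and all lay above 2C. The log2 change to 8C was 2.84 (SE 0.74, limma adjusted p = 0.0401), lost in 8 of 19 alternatives, among them each 8C library left out (0.109 and 0.163) and each CX45 library left out (0.0804 and 0.0808).

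The 8 enzymes of the multisynthetase complex summed to 118 and 118 FPKM in 2C, 351 and 367 in 8C, 74.3 and 106 in CX22, with 425 and 402 in CX45. The other 13 cytosolic genes summed to 74.5 and 76.8 FPKM in 2C, 206 and 255 in 8C, 111 and 136 in CX22, with 189 and 204 in CX45, more than the complex in CX22 and less in the other groups. Rars, the arginine enzyme of the complex (mm9 chr11:35621883-35648030), was at 22.3 and 22.5 FPKM in 2C, 157 and 150 in 8C, 1.58 and 13.8 in CX22, with 160 and 128 in CX45. Its 8C values lay above 2C without overlap, but its log2 change of 2.72 (SE 1.04) did not pass (limma, adjusted p = 0.101). Without the first or second CX22 library, which add to the shared estimate of the spread, the adjusted p was 0.00616 and 0.00624. Kars, the lysine enzyme (mm9 chr8:114517339-114535254), was at 33.6 and 34.6 FPKM in 2C, 65.6 and 86.2 in 8C, 7.31 and 24.5 in CX22, with 86.0 and 79.0 in CX45. It did not pass from 2C to 8C (log2 1.12, SE 0.71, limma adjusted p = 0.265), although the 8C values did not overlap those of 2C, and was called without the first or second CX22 library (0.0366 and 0.0372). Iars, the isoleucine enzyme (mm9 chr13:49777499-49829636), was the member of the complex with a negative fitted change. It was at 25.8 and 24.3 FPKM in 2C, 17.3 and 24.7 in 8C, 49.0 and 24.4 in CX22, with 69.4 and 77.2 in CX45, and the 2C, 8C and CX22 values overlapped. Of the 8 complex enzymes 1 (Eprs) rose from 2C to 8C, with a median log2 change of 1.43, against 4 of the 11 tested cytosolic genes outside the complex, with a median of 2.19. Over all genes 16.4% rose, so 1 of 8 lies near the background, and the difference between these groups was not tested.

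Other abundant members did not pass in any of the 6 comparisons with all libraries in the fit. Dars, the aspartate enzyme of the complex, was at 13.6 and 12.9 FPKM in 2C, 32.6 and 26.2 in 8C, 7.10 and 19.7 in CX22, with 34.9 and 30.7 in CX45. Qars, the glutamine enzyme of the complex, was at 13.1 and 13.6 FPKM in 2C, 35.4 and 45.6 in 8C, 0.204 and 18.4 in CX22, with 41.5 and 44.2 in CX45. Both had 8C and CX45 values above all of their 2C and CX22 values. The CX22 libraries of Qars were far apart, and its change from 2C to 8C was 1.52 with an SE of 1.63 on the log2 scale. Without the first or second CX22 library it was called (limma, adjusted p = 0.0196 and 0.0215). Gars, the glycine enzyme, was at 7.48 and 8.37 FPKM in 2C, 18.1 and 23.2 in 8C, 6.59 and 14.2 in CX22, with 18.2 and 10.8 in CX45, so that CX22 and CX45 overlapped. Hars, the histidine enzyme, was at 2.34 and 3.13 FPKM in 2C, 18.3 and 17.5 in 8C, 12.5 and 0.997 in CX22, with 24.5 and 21.1 in CX45. Tars, the threonine enzyme, was at 1.26 and 0.945 FPKM in 2C, 10.2 and 11.5 in 8C, 1.05 and 5.92 in CX22, with 11.2 and 23.8 in CX45. For Hars and Tars the CX22 values overlapped those of 2C, and 8C and CX45 were the highest. Sars, the serine enzyme, was lower throughout, at 0.802 and 0.686 FPKM in 2C, 4.29 and 7.39 in 8C, 1.72 and 2.82 in CX22, with 2.87 and 4.23 in CX45, and its adjusted p from 2C to 8C was 0.0537 by limma. It was called without the first or second CX22 library, at 0.0486 and 0.0488, and Tars was too, at 0.0408 and 0.0421.

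Phenylalanine tRNA in the cytosol is charged by an enzyme of paired subunits, Farsa and Farsb. Farsa (mm9 chr8:87380885-87393156) was at 4.63 and 6.21 FPKM in 2C and 21.4 and 37.3 in 8C, was listed at 0 in both CX22 libraries, and was at 7.81 and 17.4 in CX45. Farsb (mm9 chr1:78414533-78485472) was at 15.1 and 17.1 FPKM in 2C, 17.8 and 20.8 in 8C, 25.4 and 48.9 in CX22, with 4.38 and 13.7 in CX45. Farsa was thus lowest and Farsb highest in CX22. Neither passed from 2C to 8C (limma, adjusted p = 0.0563 for Farsa and 0.821 for Farsb). With the entry of the highest mean in place of the sum, the Farsb difference turned from 0.25 to -4.09 on the log2 scale and was called (adjusted p = 0.00531), and that entry was listed at 0 in both 8C libraries. Farsa was called without the second 2C library, at 0.0459. Which entry of these genes received the FPKM differed between libraries. All of the Farsa and Farsb FPKM in 2C sat in entries for non-coding transcripts of the genes, against 76.6% and 0% of Farsa and 0% and 0% of Farsb in the 8C libraries.

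In the mitochondrial set, Wars2 and Yars2 rose from levels near 0 to the highest means of that set in 8C. The limit that the filter sets, given above, holds for both. Wars2, the tryptophan enzyme (mm9 chr3:98945013-99024126), was at 0.0190 FPKM and listed at 0 in 2C and stood at 18.2 and 18.5 in 8C, was at 1.89 and listed at 0 in CX22, and was at 4.2 and 4.72 in CX45. Only 8C exceeded 5 FPKM, and CX45 lay between 8C and the other groups without overlap. The 8C mean was 18.4 ± 0.192 FPKM (SD, n = 2). The log2 change from 2C to 8C was 4.26 (SE 0.75, limma adjusted p = 0.0146), lost at 0.0794 and 0.0827 without the first or second 8C library. Yars2, the tyrosine enzyme (mm9 chr16:16303058-16309733), was listed at 0 and at 0.0502 FPKM in 2C, was at 13.2 and 13.0 in 8C, was listed at 0 in both CX22 libraries, and was at 11.5 and 7.49 in CX45. The 8C and CX45 values were all above those of 2C and CX22. Its log2 change to 8C of 3.78 (SE 0.48, limma adjusted p = 0.00676) was lost at 0.0507 and 0.0515 without the first or second 8C library.

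Of the other 10 tested mitochondrial genes, 1 (Fars2) fell and 9 did not pass from 2C to 8C. Cars2, the cysteine enzyme, was at 1.85 and 1.73 FPKM in 2C, 7.39 and 15.2 in 8C, listed at 0 and at 4.74 in CX22, and at 15.5 and 14.2 in CX45. Mars2, the methionine enzyme, was at 0.520 and 0.648 FPKM in 2C, 4.78 and 3.63 in 8C, listed at 0 and at 6.22 in CX22, and at 12.6 and 12.1 in CX45. In both genes the 2C values lay below all 8C and CX45 values, while the CX22 libraries spanned 2C. Lars2, the leucine enzyme, was low in every library, at 1.28 and 1.18 FPKM in 2C, 0.602 and 0.429 in 8C, 1.39 and 3.05 in CX22, with 0.651 and 0.363 in CX45. Like Fars2, it had all of its 2C and CX22 values above all of its 8C and CX45 values, but its log2 change of -0.56 from 2C to 8C was not called (limma, adjusted p = 0.34). Hars2, the histidine enzyme, was at 0.0288 FPKM and listed at 0 in 2C, and at 6.91 and 4.45 in 8C, listed at 0 and at 4.59 in CX22, and at 9.71 and 4.91 in CX45. Tars2, the threonine enzyme, was listed at 0 in 2C and stood at 2.62 and 1.39 FPKM in 8C, 2.34 and 1.75 in CX22, with 2.14 and 1.17 in CX45, so that the latter groups overlapped.

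**Figure D3:**
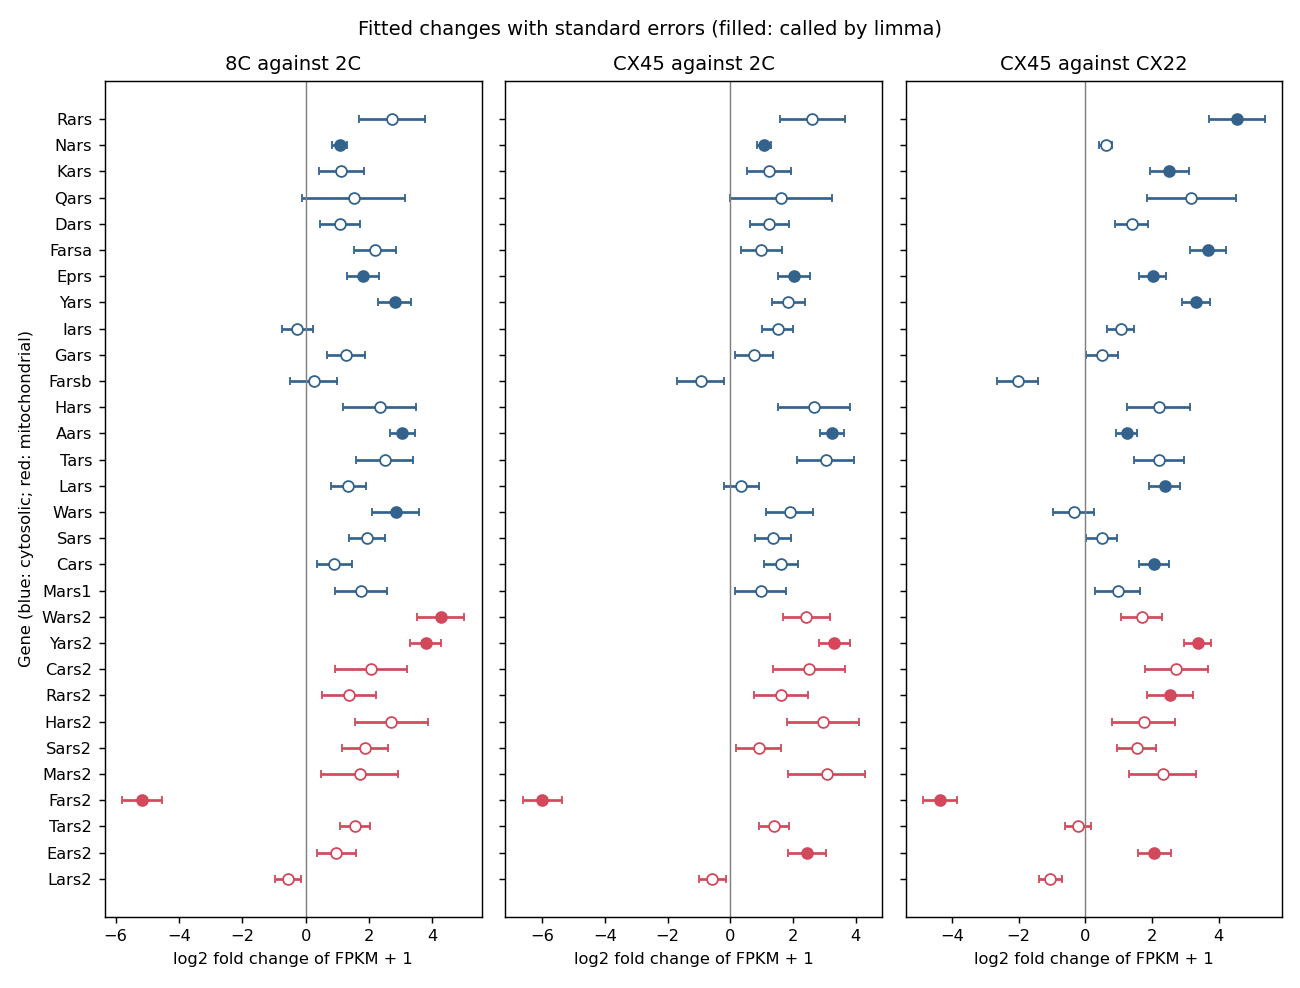
Fitted log2 fold change of FPKM + 1 for 30 tested synthetases in the comparisons named above the panels, with standard errors as bars and filled points where limma made a call. From 2C to 8C 27 of 30 points lie above 0 and Fars2 lies at -5.17, and Fars2 is a filled point left of 0 in all 3 panels.

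Fars2 fell from 2C to 8C. Its level was 163 and 162 FPKM in 2C, 3.06 and 4.11 in 8C, 37.7 and 69.6 in CX22, with 2.59 and 0.811 in CX45. Every 2C and CX22 value lay above every 8C and CX45 value, and CX22 lay below 2C without overlap. The 8C mean was 3.58 ± 0.742 FPKM and the CX22 mean 53.6 ± 22.5 FPKM (SD, n = 2 each). All of the Fars2 FPKM sat in an entry of 962 bases, except in the second 8C library. There it sat in an entry of 2125 bases. The first and second 8C levels stand for 52 and 176 implied fragments, so their closeness in FPKM depends on the entry used. On the log2(FPKM + 1) scale the change from 2C was -5.17 (SE 0.63) to 8C (limma, adjusted p = 0.006), -6.01 to CX45 (adjusted p = 0.00666) and -1.65 to CX22, which did not pass (adjusted p = 0.305). The falls to 8C and to CX45 kept their call in all 19 alternatives.

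On the mm9 build Fars2 lies at chr13:36209512-36629464. The interval of the gene Lyrm4, chr13:36070666-36209226, lies next to it with a gap of 285 bases. That gap was taken from coordinates without regard to strand, so it does not say which end of Lyrm4 faces Fars2. Lyrm4 codes for a partner of the mitochondrial cysteine desulfurase in iron-sulfur cluster assembly. Lyrm4 is not a synthetase, and it was singled out for its position after its values were seen. It stood at 783 and 804 FPKM in 2C, 29.0 and 21.1 in 8C, 389 and 203 in CX22, with 62.2 and 84.8 in CX45. Its order of groups was that of Fars2 except that CX45 lay above 8C. From 2C to 8C it fell by 4.95 on the log2 scale (SE 0.50, limma adjusted p = 0.00394), and from 2C to CX45 it fell by 3.43 (adjusted p = 0.0124), which was lost without the first CX45 library at 0.0601. From CX22 to CX45 it fell by 1.94 (adjusted p = 0.0225), and this call was lost without any 1 of the 8C or CX45 libraries, at 0.0609 to 0.113. Whether fragments of one gene were assigned to the other was not tested.

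**Figure D4:**
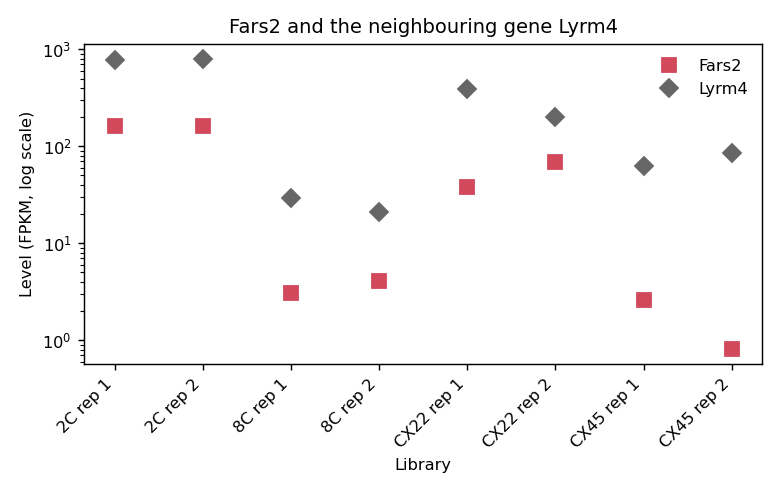
FPKM of Fars2 and of the neighbouring gene Lyrm4 in each of the 8 libraries on a log axis, with 1 point per gene and library. Both genes are highest in 2C (162 to 163 and 783 to 804 FPKM) and lie lower in 8C and CX45 than in CX22.

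For 14 amino acids the levels of a cytosolic and a mitochondrial enzyme coded by separate genes were set side by side in each library, with Farsa and Farsb summed and Tars and Tarsl2 summed. The cytosolic transcripts were the higher of the pair in 8 of 8 libraries for alanine, arginine, asparagine and isoleucine. For cysteine and methionine the order was the reverse, with Cars2 above Cars and Mars2 above Mars1 in 7 of 8 libraries and both genes listed at 0 in the first CX22 library. Cars, the cytosolic cysteine enzyme (mm9 chr7:150743135-150785995), was at 0.951 and 0.812 FPKM in 2C, 2.22 and 2.87 in 8C, listed at 0 and at 0.917 in CX22, and at 5.04 and 4.53 in CX45. Mars1, the cytosolic methionine enzyme, was at 1.86 and 2.87 FPKM in 8C, at 2.84 and listed at 0 in CX45, and listed at 0 in 2C and CX22. Cars was highest in CX45, without overlap with the other groups.

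The order within a pair changed with the group for phenylalanine and tryptophan. Farsa and Farsb together were above Fars2 in the 4 libraries of 8C and CX45, and Fars2 was above them in the 4 of 2C and CX22. For tryptophan Wars was above Wars2 in 3 libraries and Wars2 above Wars in 5, among them all of 8C and CX45. In 2C this order rests on 0.0190 FPKM of Wars2 in the first library and 0.0423 of Wars in the second. The other gene was listed at 0 in each case. Those values lie under the level of 3 fragments, so the order in 2C is undetermined. The cytosolic gene was the higher in 7 of 8 libraries for histidine, serine and threonine, and in 6 for leucine and tyrosine. Mitochondrial Lars2 exceeded Lars, the leucine enzyme of the complex, in both CX22 libraries, where Lars was listed at 0. Valine had low levels on both sides, at 1.04 FPKM or less.

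**Figure D5:**
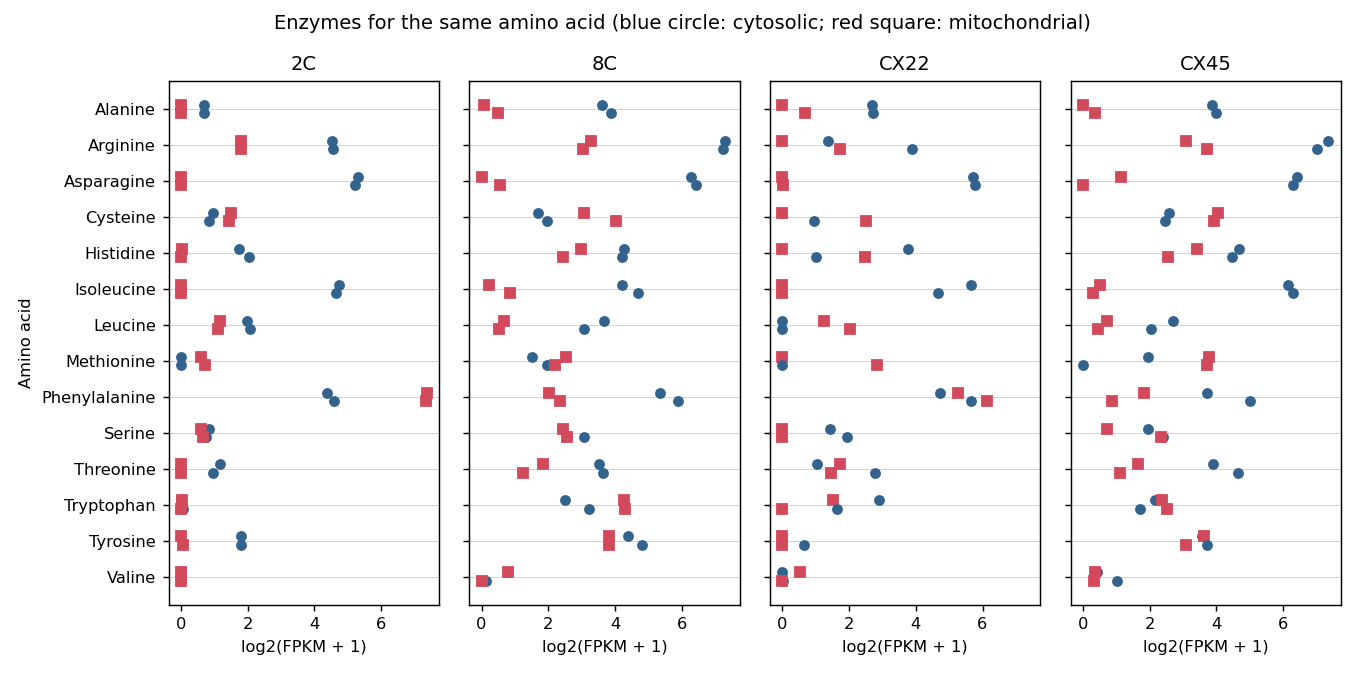
Levels of the cytosolic (circles) and mitochondrial (squares) enzymes for 14 amino acids as log2(FPKM + 1), with 1 panel per group and both libraries of the group drawn in each row. The square for phenylalanine (Fars2) is far to the right of the circle in 2C and to its left in 8C, while the squares for cysteine and methionine lie right of or on the circles in every panel.

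Between 2C and CX22 none of the 31 tested members was called by limma, against 3.85% of all genes tested (0.6% rose and 3.25% fell). At an unadjusted p under 0.05, 3 members were higher and 4 lower, and the median log2 change was 0.02 for cytosolic and 0.17 for mitochondrial genes, against -0.07 over all genes. Aars had the smallest adjusted p, 0.0768, with a log2 difference of 2.01 (SE 0.39). Its CX22 values of 5.42 and 5.56 FPKM were above both of its 2C values and below all of its 8C and CX45 values. It was called with a pseudocount of 0.1 (adjusted p = 0.0409) and with no filter on low values (0.0494). Without the second CX22 library 4 cytosolic members were called, 1 higher and 3 lower, so the absence of calls depends on that library. A difference that misses the threshold here does not show that 2C and CX22 were alike.

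Compared with 8C, CX22 had lower levels of 10 members and a higher level of Fars2. Among those that fell were the cytosolic Eprs, Farsa, Kars, Lars, Rars and Yars and the mitochondrial Sars2, Wars2 and Yars2. The 11 called are 35.5% of the members tested, against 41.5% of all genes (20% rose and 21.5% fell). Median log2 differences were -1.65 for cytosolic and -1.88 for mitochondrial genes, against -0.05 over all genes. Rars was lower by a fitted log2 difference of -4.65 (SE 0.85, limma adjusted p = 0.0135), and Kars by -2.39 (SE 0.58, adjusted p = 0.0292). Eprs differed by -1.78 (adjusted p = 0.0253), Wars2 by -3.51 (adjusted p = 0.0118) and Yars by -4.27 (adjusted p = 0.00299), and Fars2 by 3.52 in the other direction (adjusted p = 0.00729).

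Farsa, Lars, Sars2 and Yars2 were also called in this comparison and were listed at 0 in both CX22 libraries, so no fold is given for them. Farsa (limma, adjusted p = 0.00372) and Yars2 (0.00329) are given above. Lars was at 11.7 and 7.32 FPKM in 8C, 2.91 and 3.18 in 2C, and 5.54 and 3.10 in CX45 (adjusted p = 0.00608). Sars2, the mitochondrial serine enzyme (mm9 chr7:29526987-29538898), was at 4.42 and 4.88 FPKM in 8C, 0.523 and 0.571 in 2C, and 0.665 and 4.08 in CX45 (adjusted p = 0.0272). Without the first or second 8C library the count of called members dropped from 11 to 3 or 4 (Farsa, Yars and Yars2, with Lars when the second was left out), and without the second CX22 library it was 17. Median-of-ratios scaling moved the median of all genes to -0.168. Farsa was not called when the gene was represented by its entry with the highest mean (adjusted p = 0.0968).

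CX45 and 8C differed in none of the 31 tested members by limma, while 0.659% of all genes were called (0.457% rose and 0.203% fell). At an unadjusted p under 0.05, 2 members were higher in CX45 (Iars and Ears2) and 1 was lower (Wars2). With 8 separate libraries in place of an averaged 2C, Iars was called (adjusted p = 0.036). Iars differed by 1.77 on the log2 scale (SE 0.41, limma adjusted p = 0.12), and its CX45 values of 69.4 and 77.2 FPKM exceeded all those of the other groups. Wars2 differed by -1.83 (SE 0.61, adjusted p = 0.213), with 4.2 and 4.72 FPKM in CX45 against 18.2 and 18.5 in 8C. Ears2, the mitochondrial glutamate enzyme (mm9 chr7:129177676-129210600), was listed at 0 in 2C and stood at 0.797 and 1.13 FPKM in 8C, 0.595 and 0.0506 in CX22, with 7.23 and 2.59 in CX45. It differed by 1.47 (SE 0.50, adjusted p = 0.218), and its CX45 values lay above all others. The median log2 difference between CX45 and 8C was 0.00 for cytosolic and -0.09 for mitochondrial genes, against 0.31 over all genes tested, a shift that median-of-ratios scaling brought to -0.00217.

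From CX22 to CX45, 11 members rose and Fars2 fell, which makes 12 of 31 called (38.7%) against 36.6% of all genes (23.1% rose and 13.5% fell). The 11 were the cytosolic Aars, Cars, Eprs, Farsa, Kars, Lars, Rars and Yars and the mitochondrial Ears2, Rars2 and Yars2. Median log2 changes were 2.01 for cytosolic and 1.91 for mitochondrial genes, against 0.47 over all genes. Rars rose by a log2 change of 4.55 (SE 0.85, limma adjusted p = 0.0169), Yars by 3.32 (SE 0.42, adjusted p = 0.00737) and Kars by 2.52 (SE 0.58, adjusted p = 0.0284). Rars2, the mitochondrial arginine enzyme (mm9 chr4:34562206-34607416), was listed at 0 and at 2.35 FPKM in CX22 and stood at 7.58 and 12.1 in CX45, 2.46 and 2.46 in 2C, and 8.75 and 7.18 in 8C. Its change was 2.53 (SE 0.70, adjusted p = 0.0465). Fars2 fell by 4.36 (SE 0.51, adjusted p = 0.00658), in 18 of 18 alternatives. Farsa was not called when its entry with the highest mean stood for the gene (adjusted p = 0.245). The count was 5 without the first or second 8C library (Farsa, Lars, Yars, Yars2 and Fars2), 6 without the first CX45 library and 8 without the second. With quantile normalization the median of all genes was 0.0643 and 9 members rose and 3 fell, Farsb and Lars2 with Fars2, and the share of rising genes among all calls went from 63.1% to 48.9%.

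From 2C to CX45, the cytosolic Aars, Eprs and Nars and the mitochondrial Ears2 and Yars2 rose and Fars2 fell, 6 of 31 (19.4%) against 29.8% of all genes (16.2% rose and 13.6% fell). The median log2 change was 1.51 for cytosolic and 2.02 for mitochondrial genes, against 0.33 over all genes, and 28 of 31 changes were positive. The limit that the filter sets on the change from 2C to 8C holds here too. Aars rose by 3.25 (SE 0.39, limma adjusted p = 0.0085) and Yars2 by 3.33 (SE 0.48, adjusted p = 0.0124), each called in all 19 alternatives. Eprs rose by 2.04 (adjusted p = 0.0406), and Nars by 1.08 (adjusted p = 0.0308). Ears2, listed at 0 in the 2C libraries, passed at an adjusted p of 0.043. That call was lost in 11 of 18 alternatives, among them without either 8C library (0.107 and 0.106), without either CX22 library (0.0574 and 0.0583) and without the first CX45 library (0.0704). Leaving out either 8C library or the first CX45 library left 3 called members (Aars, Yars2 and Fars2), and leaving out either or both CX22 libraries gave 18. With median-of-ratios scaling the median of all genes was 0.0833 and 2 members rose and 1 fell, and the share of rising genes among all calls went from 54.5% to 44.4%. The comparisons of 8C and of CX45 with 2C share the 2C sample, so their likeness is not independent evidence.

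Genes that work next to the synthetases were examined as lists, with values for at most 4 called genes in each, and their counts from 2C to 8C stand against 16.4% of all genes that rose and 20.7% that fell. Gatc, Tufm, Aarsd1, Dtd1 and Phgdh lay under 1 FPKM in 2C and CX22 and passed the filter through 8C and CX45 alone. Tsfm needed 8C or CX45 to pass, and Gfm2 passed through 2C alone. The filter favours the directions given for these genes, so their signs are not evidence of a rise or a fall. Of the scaffold proteins of the multisynthetase complex, Eef1e1 rose from 2C to 8C and Aimp1 and Aimp2 did not pass, 1 of 3. Eef1e1 was at 34.0 and 34.7 FPKM in 2C, 419 and 357 in 8C, 35.5 and 26.9 in CX22, with 341 and 290 in CX45, and its log2 change from 2C to 8C was 3.46 (SE 0.29, limma adjusted p = 0.00286). Its 8C and CX45 values lay above all those of 2C and CX22, as the sum of the complex enzymes did. Of the amidotransferase that makes mitochondrial glutaminyl-tRNA, Gatc rose, 1 of 3, from listed at 0 and 0.0438 FPKM in 2C to 2.17 and 4.49 in 8C (log2 2.03, adjusted p = 0.0398).

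The lists of elongation factors hold those that take up charged tRNA or move it through the ribosome, along with exchange, recycling and other factors. Among 6 cytosolic factors 5 rose from 2C to 8C and 0 fell, against 16.4% and 20.7% of all genes, with a median log2 change of 4.65. Eef1a1, which carries aminoacyl-tRNA to the ribosome, was at 161 and 168 FPKM in 2C and 751 and 858 in 8C (log2 2.28, SE 0.26, limma adjusted p = 0.00502). Eef2, the translocation factor, was at 2.15 and 2.71 FPKM in 2C and 114 and 153 in 8C (log2 5.28, SE 0.55, adjusted p = 0.00432). Eif5a and Eef1d rose by 5.14 and 4.24. The 2C and 8C values of these 4 genes did not overlap, and the share that rose, 83.3%, was not tested against that of the synthetases. Of 5 mitochondrial factors, Tufm, the carrier of aminoacyl-tRNA, and Tsfm, its exchange factor, rose, and Gfm2, a ribosome recycling factor, fell. Tufm was listed at 0 in both 2C libraries and stood at 32.9 and 50.7 FPKM in 8C (adjusted p = 0.00675). Gfm2 was at 2.43 and 2.45 FPKM in 2C and listed at 0 in the other 6 libraries.

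Among 21 tested genes of tRNA maturation and export, 7 rose from 2C to 8C and 0 fell. The share called, 33.3%, lies near the 37% of all genes, and the median log2 change was 1.73 against -0.03. Pop4, Pop5 and Rpp38, subunits of the enzyme that trims the 5′ end of tRNA, and Xpot, the exporter of tRNA from the nucleus, were among them. Pop4 was at 0.548 and 0.449 FPKM in 2C, 126 and 136 in 8C, 5.73 and 9.25 in CX22, with 145 and 110 in CX45 (log2 change to 8C 6.46, SE 0.38, limma adjusted p = 0.00201). Xpot was at 2.34 and 1.95 FPKM in 2C and 18.1 and 16.4 in 8C (log2 2.53, adjusted p = 0.013). Both genes were higher in each 8C and CX45 library than in each 2C and CX22 library. Of 8 editing and selenocysteine factors, Aarsd1, which removes serine wrongly joined to alanine tRNA, and Dtd1, which removes D-amino acids from tRNA, rose by 4.10 and 3.05, and 0 fell.

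Of 17 tested genes linked to the response to amino acid shortage, 4 rose and 4 fell from 2C to 8C. That is 23.5% each against 16.4% and 20.7% of all genes, with a median log2 change of -0.11. Those that fell include Eif2ak4, which codes for the kinase that senses uncharged tRNA, so the counts are not of responding genes alone. Phgdh, the first enzyme of serine synthesis, rose, from listed at 0 and 0.208 FPKM in 2C to 73.9 and 69.2 in 8C (log2 6.04, limma adjusted p = 0.0023). Eif4ebp1, a repressor of cap-dependent translation, rose by 5.61 (adjusted p = 0.00364). Mthfd2, a mitochondrial folate enzyme, fell by 4.35 (adjusted p = 0.00369), from 130 and 128 FPKM to 5.65 and 5.10, and Slc7a11, the cystine transporter, fell by 3.95 (adjusted p = 0.00524). Atf4 itself was not called, at 34.9 and 30.9 FPKM in 2C and 44.4 and 89.7 in 8C. Of the 5 synthetases with an amino acid response element in the promoter, Aars and Yars rose from 2C to 8C, and Gars, Iars and Tars did not pass. Between 8C and CX45, 0 genes of these lists were called, against 0.659% of all genes, a share too low for that count to describe the lists. The 6 cytosolic elongation factors were all lower in CX45 than in 8C, 3 of them at an unadjusted p under 0.05 by limma. Their median log2 difference was -1.33, against 0.31 over all genes tested.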

How the data were processed

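RNA was measured in 8 Smart-seq libraries of mouse embryos, 2 in each of 4 groups given by the sample titles. The deposited table gives FPKM, made by the authors per RefSeq transcript. The submitters' processing notes list HISAT2 (with version 4.8.2), Cufflinks 2.2.1 and the build mm9. Settings are not given in these sources. Of 41876 entries, 41680 matched a gene symbol, and the other 196 carried 0.083% to 0.255% of the FPKM. Entries were summed per gene, so near-identical copies and overlapping genes are uncertain. The 38 synthetases had 74 entries, and 19 had more than 1.

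Implied depths came from the steps of low FPKM values, of which 65.1% to 70.4% lay within 0.05 of whole fragments. Genes at 1 FPKM or more in 2 of 8 libraries were tested, 11829 in all. Limma 3.58.1 in R 4.3.3 was fitted on log2(FPKM + 1), which understates changes of low genes, with all groups in 1 fit. The 2C libraries were averaged into 1 sample, leaving 7 samples and 3 residual degrees of freedom, so the spread within 2C was taken to equal that of 8C, CX22 and CX45. Calls needed a two-sided Benjamini-Hochberg adjusted p under 0.05 and a log2 change of at least 1, over 6 comparisons. The script was tested on simulated data. Named members were those called in any comparison or at a mean of 10 FPKM or more in a group, and at most 4 called genes from each other list, smallest p first. Other members were named to describe pairs and levels. The members and lists were chosen with earlier results of these data known. Promoters are RefSeq sequences on GRCm38.p6, and their coordinates were not joined to those of mm9. Alternatives covered pseudocounts, filters, scaling, the averaging of 2C, the replicate block, the entry used per gene, the moderation and left-out libraries. A member counted in the totals is not reported by name here.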

Additional observations from a re-analysis of the deposited data

How the results depend on the processing

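With 3 residual degrees of freedom, the counts of called synthetases depended on single libraries. The count for 8C against 2C was 8, and it was 19 with 8 separate libraries, 5 with the replicate block, 16 without both CX22 libraries (an alternative chosen after seeing the data) and 1 to 17 with 1 library left out. For CX22 against 2C it was 0, then 2 with a pseudocount of 0.1, 1 with no filter, 6 with 8 separate libraries and 0 to 4 with 1 left out. For CX45 against 8C it was 0, then 1 with 8 separate libraries and 0 to 0 with 1 left out. For CX45 against CX22 it was 12, then 20 with 8 separate libraries and 5 to 16 with 1 left out. For CX45 against 2C it was 6, then 3 with median-of-ratios scaling, 19 with 8 separate libraries, 3 with the replicate block, 18 without both CX22 libraries and 3 to 18 with 1 left out. For CX22 against 8C it was 11, and 3 to 17 with 1 left out. With the entry of the highest mean per gene, Farsb reversed from 0.25 to -4.09 (log2) in 8C against 2C. It also reversed from -1.19 to 2.56 in CX45 against 8C, since that entry is listed at 0 in 8C. Reversal was checked for member changes at an unadjusted p under 0.05, for Farsb and Lyrm4, and for Kars, Qars, Iars and Lars2 in 8C against 2C. Among these no other reversed. The remaining member changes and the genes of the other lists were not checked for reversal. The labels give only a number, and the differences between same-numbered libraries correlated at -0.000713 to 0.108 over the 6 pairs of groups, so the block pairs numbers, not embryos. The cause of these shifts was not tested. The lowest implied depth, 9.74 M fragments (M is 1000000) in the first CX22 library, limits low values there most.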

Other observations

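Which entry of a synthetase gene carried its FPKM differed between libraries. Rars2 had all of its FPKM in entries for non-coding transcripts in both 2C libraries and the second CX22 library, 0% in both 8C libraries, and 0% and 22.9% in CX45. Farsb had 100% and 43.2% of its FPKM in such entries in CX22, with 100% and 39.8% in CX45. Tars2 had 43.6% and 100% there in 8C, 0% and 100% in CX22, with 62.3% and 17.3% in CX45. Yars2 had 18.4% and 0% there in 8C, with 10.8% and 26.7% in CX45. Among 808 genes with both kinds of entry the median share was 0% in each library, and 170 and 171 of them had more than 99% of their FPKM in non-coding entries in 2C, against 72 and 62 in 8C, 165 and 152 in CX22, with 109 and 68 in CX45.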
